A study of Mus musculus with 3 samples.

Results

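Small nucleolar RNAs (snoRNAs) were followed in the chromatin-bound RNA of mouse macrophages. Members were chosen by 2 criteria: the deposited transcript table types the gene as snoRNA, and its expected count averaged 10 or more over 3 libraries. Mean counts therefore describe the choice and support nothing by themselves. The rule found 64 of 1507 annotated snoRNA genes, among 14396 mouse genes that reached the same minimum and 55536 that were listed. The libraries formed 1 group: total RNA, depleted of ribosomal RNA, from the chromatin fraction of bone-marrow-derived macrophages (BMDM) of C57BL/6J mice stimulated for 30 min with Lipid A, the TLR4-activating moiety of bacterial lipopolysaccharide, at 100 ng/ml. They are biological replicates 1, 2 and 3 of the same donor record, and the labels state 1 µg, 250 ng and 500 ng of starting RNA for libraries 1, 2 and 3. Whether separate mice were used is not stated, so each spread and p-value describes these libraries and may be technical. No unstimulated cells and no other cell fraction were analysed here, so a level says nothing about a response to Lipid A or about enrichment on chromatin. All 10 macrophage markers examined were detected, with a median of 114 TPM (a count divided by the gene's effective length and rescaled within the library), and 4 of 20 markers of other cell types were, none above 1.18 TPM.

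SnoRNAs are short nuclear RNAs that pair with a target RNA and bring a protein complex to it. C/D snoRNAs, named Snord in mouse, carry a C box and a D box and mostly guide methylation of riboses by fibrillarin. H/ACA snoRNAs, named Snora, end in an ACA box and mostly guide conversion of uridine to pseudouridine by dyskerin. A few, such as U3, U8, U14, U17 and U22, take part in cleavage of the ribosomal RNA precursor instead, and the related scaRNAs act in Cajal bodies on the RNAs of the spliceosome. Most mammalian snoRNAs lie in introns of other genes and are trimmed out of the intron after splicing. Chromatin-bound RNA holds nascent transcripts with their introns, so reads over a snoRNA can come from the mature RNA or from its precursor, and the count tables do not tell these apart.

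The 64 detected genes comprised 4 Snord genes (Snord17, Snord15b, Snord22 and Snord15a), 17 Snora genes and 43 genes with other symbols. The last group held 31 gene models with Gm numbers, 10 entries for U3 (Rnu3a and Rnu3b1 to Rnu3b4), Scarna10 and Mir1949. Symbols therefore gave the class of 21 genes only. In the GENCODE M21 transcript sequences, TGATGA within the first 25 nt was taken as a C box, CTGA within the last 20 nt as a D box and ACA within the last 9 nt as an ACA box, on the transcript strand alone. By these letters 41 of the 64 carried an ACA box without the C and D pair, 6 carried the pair without ACA, 1 carried both, and 16 carried neither pattern. Among all 1507 annotated snoRNA genes, 47.0% held an ACA box and 20.6% held the C and D pair. Of the 31 detected Gm models, 27 held ACA and 3 held the C and D pair. The pattern is a description of letters: Snord22 and all 10 U3 entries held a CTGA near the 3′ end with no exact TGATGA, and so fell among the 16.

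The following sequences are examples of abundant detected genes with C and D boxes or with an ACA box, which are in capitals. More abundant members such as Scarna10 and Snora73a are not printed. They are GENCODE M21 transcript sequences, 5′ to 3′, on build mm10. Gm25835 carries both boxes of a C/D snoRNA under a Gm symbol, and Gm22988 and Gm26447 end in the ACA of the other class. The last of the set, Snord21 and Gm24339, are short C/D snoRNAs that were listed at 0 in the first quantification and were abundant in the second.
Snord17 (chr2:144265979-144266216, minus strand): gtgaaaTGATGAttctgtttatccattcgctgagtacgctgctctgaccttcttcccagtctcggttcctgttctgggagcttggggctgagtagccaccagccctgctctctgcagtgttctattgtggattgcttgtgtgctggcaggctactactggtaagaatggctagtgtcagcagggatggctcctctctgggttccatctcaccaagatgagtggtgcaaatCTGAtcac
Snord15b (chr7:99479563-99479707, minus strand): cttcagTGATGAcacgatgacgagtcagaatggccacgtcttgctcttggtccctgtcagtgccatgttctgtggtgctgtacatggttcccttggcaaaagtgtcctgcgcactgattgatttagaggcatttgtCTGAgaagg
Gm25835 (chr11:69668852-69668995, minus strand): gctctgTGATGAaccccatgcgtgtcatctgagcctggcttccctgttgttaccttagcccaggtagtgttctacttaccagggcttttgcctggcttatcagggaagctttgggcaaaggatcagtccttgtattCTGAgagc
Snord22 (chr19:8725866-8725991, plus strand): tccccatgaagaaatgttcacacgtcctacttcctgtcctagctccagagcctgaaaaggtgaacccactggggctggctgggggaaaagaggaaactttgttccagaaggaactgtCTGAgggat
Snora73b (chr4:132352322-132352526, minus strand): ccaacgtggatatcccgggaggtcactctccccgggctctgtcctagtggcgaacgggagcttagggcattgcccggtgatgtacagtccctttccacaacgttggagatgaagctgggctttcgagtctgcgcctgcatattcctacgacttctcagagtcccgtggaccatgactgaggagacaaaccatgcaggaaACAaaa
Gm22988 (chr11:69669635-69669778, minus strand): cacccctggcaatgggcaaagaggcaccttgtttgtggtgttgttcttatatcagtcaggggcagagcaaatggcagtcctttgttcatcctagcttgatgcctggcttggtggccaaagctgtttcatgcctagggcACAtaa
Gm26447 (chr16:23111301-23111429, plus strand): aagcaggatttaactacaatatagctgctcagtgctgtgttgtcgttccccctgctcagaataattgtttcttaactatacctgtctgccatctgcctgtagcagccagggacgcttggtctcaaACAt
Snord21 (chr5:107904555-107904648, plus strand): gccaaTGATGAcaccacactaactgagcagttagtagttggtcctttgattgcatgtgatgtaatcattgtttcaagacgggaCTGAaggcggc
Gm24339 (chr9:15326464-15326539, minus strand): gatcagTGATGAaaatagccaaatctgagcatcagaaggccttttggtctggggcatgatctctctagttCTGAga

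Detection followed length. The authors deposited 2 quantifications of each library, here called the first (expected counts and TPM per gene) and the second (estimated counts and TPM per transcript). The detected genes were 121 to 325 nt long, with a median of 142 nt, whereas annotated Snord genes had a median length of 84 nt and annotated Snora genes 132.5 nt. In the first quantification the effective length, the number of positions where a fragment can start, was 0 for every snoRNA gene of at most 120, 123 and 124 nt in libraries 1, 2 and 3. Over all genes, the mean fragment length that the effective lengths imply was 197.5, 236 and 234.5 nt. Of the 597 snoRNA genes with an effective length of 0 in all 3 libraries, none (0) was detected by the first quantification, while 76 were detected by the second. Those 597 genes held 6924, 7588 and 5007 estimated counts in the second quantification, against 1.98, 0 and 0 expected counts in the first.

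**Figure D1:**
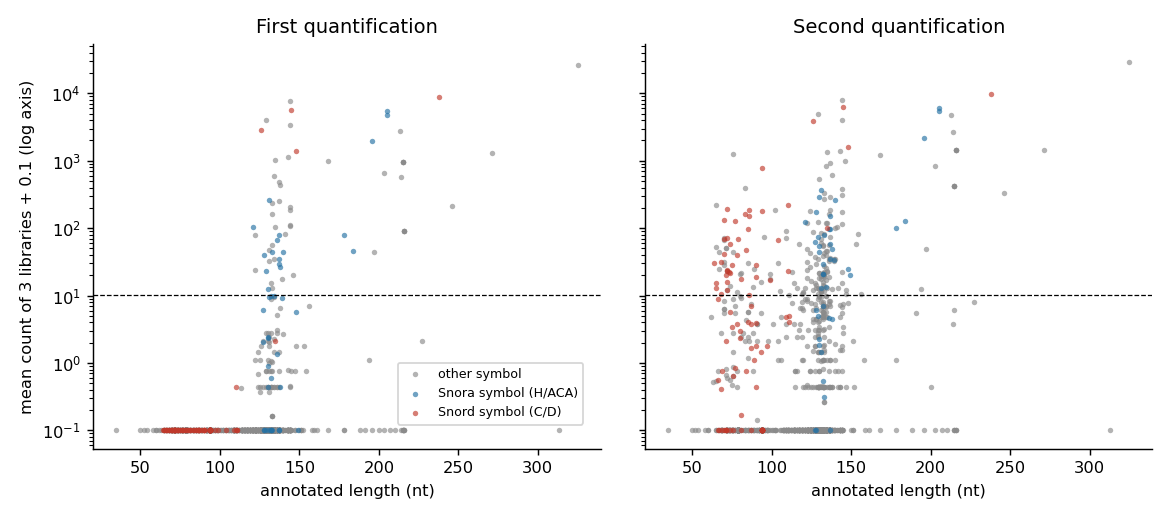
Mean count of the 3 libraries plus 0.1 (log axis) against annotated length in nt for the 1507 annotated snoRNA genes, in the first (left) and second (right) quantification. Red points are Snord, blue Snora and grey other symbols, and the dashed line marks a mean count of 10. In the left panel no gene under 121 nt lies above the line, and in the right panel a second cloud of mostly Snord and Gm genes between about 60 and 120 nt does.

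The class makeup of the detected set changed with the quantification. The first quantification detected 4 of 98 Snord genes (4.08%), 17 of 42 Snora genes (40.5%) and 43 of 1367 others (3.15%). The second detected 42 Snord genes (42.9%), 29 Snora genes (69.0%) and 157 others (11.5%), 228 in all. Among the genes with an effective length above 0 in all libraries, the first detected 4 of 5 Snord genes and 16 of 41 Snora genes, and the second detected 5 and 28. Only 5 of the 98 annotated Snord genes thus had an effective length above 0 in every library of the first quantification. An effective length of 0 did not always mean no counts. Of the genes with 0 in at least 1 library, 3 were detected. Among them Snora26 had 77.0 and 38.0 expected counts in libraries 2 and 3, where its effective length was 0. The deposited tables do not say which value is nearer to the amount of RNA in the cell.

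Several C/D snoRNAs with known roles were outside the detected set. Snord21 (94 nt, in Rpl5, a ribosomal protein gene) was listed at 0 in the first quantification and had 834, 918 and 577 estimated counts in the second. Gm24339 (76 nt, in an intron of Cep295) was likewise at 0 and had 1634, 1315 and 772. The U13 gene Snord13 (104 nt), whose RNA is needed for acetylation of the small ribosomal RNA, was at 0 in the first and had 108, 62 and 28 in the second. The U14 copies Snord14d and Snord14c (both 86 nt, in Hspa8, a chaperone gene) were at 0 in the first, and in the second they had 220, 253 and 92 and 158, 222 and 78.9 estimated counts. Snord14e had 6.26, 5.31 and 0 in the second quantification, and Snord14a was at 0 in both. A longer gene was also outside: U8 (Snord118, 135 nt, chr11:69073427-69073561), which acts in processing of the large-subunit ribosomal RNA, had 5, 1 and 0 expected counts with an effective length above 0 in all libraries, and 156, 85 and 63 estimated counts in the second quantification.

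The threshold cut through a continuous range. The 3 members just inside it were Gm23639, Gm25636 and Snora61, with mean expected counts of 15.3, 13.0 and 12.5. The 3 genes just outside were Snora64, Snora17 and Gm22362, with 9.88, 9.67 and 9.33.

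Counts were concentrated in a few genes. The members' mean expected counts ran from 12.5 to 26697 with a median of 135, and 15 of the 64 were above 1000. Scarna10 alone held 29.8% of the members' summed mean count, the 4 Snord genes held 20.9% and the 17 Snora genes held 14.6%. Since a longer gene yields more fragments, levels between genes are compared below as CPM per 100 nt, where CPM is the count scaled to a fixed total of counts on mouse genes.

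Among the detected C/D snoRNAs, Snord17 (238 nt, in an intron of Snx5, a sorting nexin gene) had 15804, 7504 and 3012 expected counts in libraries 1, 2 and 3, or 224 ± 168 CPM per 100 nt (SD, n = 3). Snord15b and Snord15a (145 and 148 nt) both lie in Rps3, which encodes a protein of the small ribosomal subunit. Snord15b had 9689, 4880 and 2405 expected counts and Snord15a had 2254, 1313 and 560. The U22 gene Snord22 (126 nt), needed for processing of the small-subunit ribosomal RNA, had 4671, 2964 and 1011 expected counts. Its host is Snhg1, a noncoding gene whose introns hold several snoRNAs. In all 4 genes library 1 was highest and library 3 lowest. By CPM per 100 nt they ranged from 56.3 ± 35.2 in Snord15a to 237 ± 157 in Snord15b (SD, n = 3).

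The most abundant H/ACA snoRNAs by symbol were the U17 genes Snora73b and Snora73a (both 205 nt), which act in early cleavage of the ribosomal RNA precursor. Snora73b had 8563, 5853 and 1784 expected counts. Snora73a (chr4:132352775-132352979) had 6459, 6439 and 1471. The sequences agree at 198 of 205 positions, so a read from a shared stretch can belong to either. Both lie across introns of annotated genes on chromosome 4, including Rcc1, and overlap the antisense gene Gm17300. Snora74a (196 nt) had 3449, 1714 and 803 expected counts. The other Snora genes were far lower: Snora68 had 381, 344 and 47.8, Snora26 (in Dancr) had 197, 77.0 and 38.0, and Snora81 (in Eif4a2) had 103, 89.9 and 47.3. Thus 3 of the 17 Snora genes had a mean expected count above 1000, against all 4 detected Snord genes.

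Among genes with other symbols, Scarna10 (325 nt, chr6:125186359-125186683, in an intron of the condensin gene Ncapd2) had 34028, 28453 and 17609 expected counts. It is typed as snoRNA in the table, and its symbol places it with the scaRNAs of Cajal bodies. At 497 CPM per 100 nt it was the highest member also after correction for length. Gm22988 (144 nt, in Eif4a1, a translation initiation factor gene) had 11766, 7023 and 4234 expected counts. Gm26447 (129 nt, in Eif4a2, a close relative of Eif4a1) had 6640, 3749 and 1685. Gm25835, the C/D-type neighbour of Gm22988 in Eif4a1, had 4887, 3732 and 1379. Gm23547 (271 nt, chr6:124715232-124715502, in Phb2, a prohibitin gene) had 2084, 1274 and 526. Each of these genes was highest in library 1 and lowest in library 3.

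**Figure D2:**
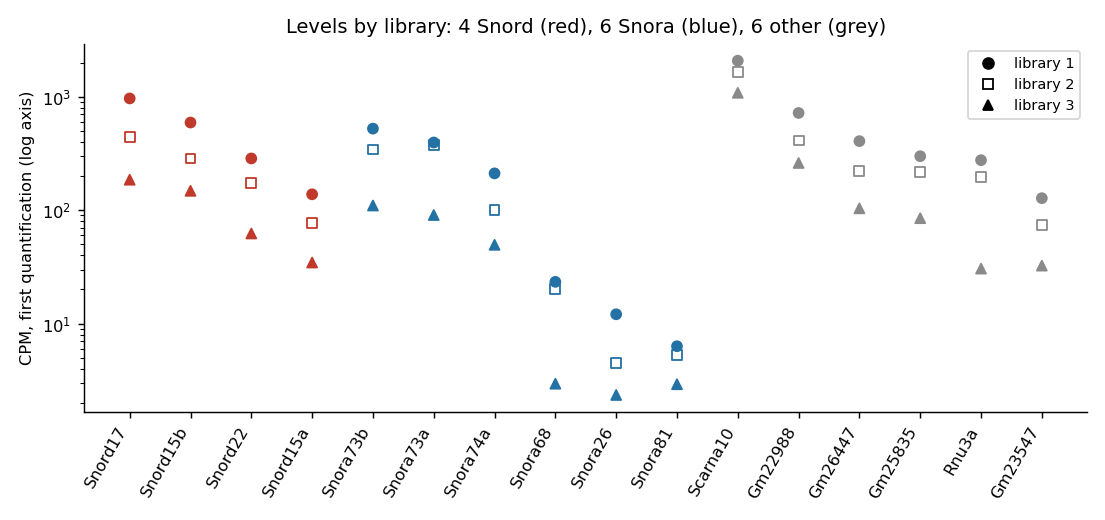
CPM in the first quantification (log axis) of the 4 detected Snord genes (red), the 6 Snora genes with most counts (blue) and the 6 other genes with most counts (grey). Circles, squares and triangles are libraries 1, 2 and 3. Library 1 is highest and library 3 lowest for each gene shown, and the step is smallest for Scarna10.

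The order of levels depended on how length was treated. By expected count the leading genes were Scarna10, Snord17 and Gm22988. By CPM per 100 nt they were Scarna10, Gm22988 and Snord15b. By TPM of the first quantification they were Gm26447, Snord22 and Gm22988, and Scarna10 was at rank 9. TPM divides by the effective length, which averaged 1.75 nt for Gm26447, 1.37 nt for Snord22 and 115 nt for Scarna10. The members held 57.8%, 50.5% and 35.4% of TPM in libraries 1, 2 and 3, while they held 0.840%, 0.531% and 0.256% of expected counts. In the second quantification they held 13.9%, 6.35% and 4.55% of TPM and 0.653%, 0.401% and 0.194% of estimated counts. The share of expected counts was 0.542% ± 0.292 (SD, n = 3), and each of these shares was highest in library 1 and lowest in library 3.

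The detected C/D genes were more abundant than the detected H/ACA genes, but this rested on which genes were counted as detected. The median log2(CPM + 0.5) of the 4 Snord genes minus that of the 17 Snora genes was 6.10, 5.94 and 6.10 in the 3 libraries, a difference of 6.05 ± 0.10 (SD, n = 3). With all annotated genes of each class, the difference of medians was -0.89. There, 92 of the 98 Snord genes had 0 counts in all libraries, so the Snord median is only the added 0.5. With the genes detected in the second quantification, measured there, the difference was -0.53. No test is given, since counts chose the members.

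The U3 genes could not be told apart. U3 is the most abundant C/D snoRNA of most cells and guides early folding and cleavage of the ribosomal RNA precursor. The 10 U3 entries stand for 5 loci, each annotated by a pair of overlapping entries that differ by 1 nt at the 3′ end. The 4 Rnu3b loci lie within Tex14 on chromosome 11 (87443237 to 87471583) and have identical sequences, so their reads are divided among 4 copies. The pair of 3′ ends at Rnu3b1 is shown because that single base, in capitals, separates the entries.
Rnu3b1, 215-nt entry, last 25 nt (chr11:87443427-87443451): agggagggaacgcagtctgagtgga
Rnu3b1, 216-nt entry, last 26 nt (chr11:87443427-87443452): agggagggaacgcagtctgagtggaC
Each 215-nt Rnu3b entry had 1628, 1039 and 170 expected counts in the first quantification and 1011, 242 and 0.00 estimated counts in the second. Each 216-nt entry had 166, 106 and 0 in the first and 1825, 1937 and 489 in the second. The 2 quantifications thus placed most Rnu3b reads on opposite entries of the same locus. At Rnu3a both placed more on the 213-nt entry on average, with means of 2779 against 568 in the first and 4769 against 2628 in the second. The gene table's posterior SD of the count reached 1048 in a Rnu3b entry, and did not exceed 2.41 in any member that was not U3.

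Summed over entries, the U3 level no longer depended on the division among copies, but it differed between libraries and between quantifications. The Rnu3a locus (chromosome 10, 40258467 to 40258680) summed to 5881, 3664 and 495 expected counts and the 4 Rnu3b loci to 7174, 4583 and 680. All U3 together amounted to 801, 484 and 72.5 CPM in the first quantification and 919, 604 and 152 CPM in the second. Library 3 was therefore far below the others in both, and the fall from library 1 was larger in the first.

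The libraries differed in snoRNA level in 1 direction. All 64 members had a higher CPM in library 1 than in library 3. The minimum was set on the mean count, so a gene could become a member through library 1 alone. A count of 10 in every library was reached by 47 snoRNA genes. The 64 also include the 10 U3 entries, which stand for 5 loci. The highest CPM was in library 1 for 63 of the 64, where 20.2% of all detected genes had theirs, and the exception was Snora61, which was highest in library 2. Library 3 held the lowest CPM for 59 members, against 19.8% of all detected genes. The order library 1 above library 2 above library 3 was found in 58 members, and in 8.63% of all detected genes. The median difference of log2(CPM + 0.5) between libraries 1 and 3 was 2.10 in the members and -0.20 in all detected genes. It was 2.09 in Snord, 2.12 in Snora and 2.07 in the other members, and it ranged from 0.68 in Snora44 to 7.40 in the 214-nt Rnu3a entry, which had no counts in library 3 and whose value is set by the added 0.5. The difference was above 1 in 61 members, and its median was 2.07 in members with a mean count of at least 100.

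**Figure D3:**
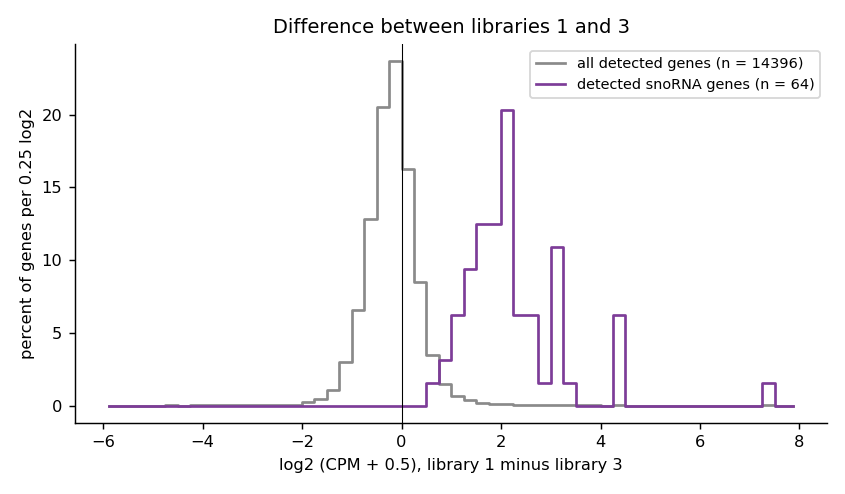
Difference of log2(CPM + 0.5) between libraries 1 and 3, as percent of genes per bin of 0.25. The purple line is the 64 detected snoRNA genes, whose median is 2.10, and the grey line is all 14396 detected genes, whose median is -0.20. All 64 snoRNA genes, which were chosen by their mean count over these libraries, lie above 0.

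Both steps contributed. Between libraries 1 and 2 the median difference was 0.75, and 63 of 64 members were higher in library 1, against 47.2% of all detected genes. Between libraries 2 and 3 it was 1.32, and 59 of 64 members were higher in library 2, against 35.2% of all detected genes. Library 1 had the shorter fragments, and libraries 2 and 3 had nearly the same mean fragment length and an effective length of 42.2 and 42.1 nt for Snord17. The starting amounts were 1 µg, 250 ng and 500 ng for libraries 1, 2 and 3. Whether fragment length or starting amount had a part in the levels was not tested. Each amount belongs to a single library, so amount and library cannot be told apart. Fewer cells holding an RNA and less of it in each cell cannot be told apart either.

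Other short RNAs did not all show this order. Among 107 detected genes of other types no longer than 325 nt, the median difference between libraries 1 and 3 was 0.49. The order of the snoRNAs was followed by 35 of them, against 8.63% of all detected genes. Library 1 was highest for 78 of the 107, against 20.2% of all detected genes. Library 3 was lowest for 37, against 19.8%. Of 28 detected small nuclear RNA genes, 27 were highest in library 1 but 3 were lowest in library 3, and their median difference was 0.81. All 9 detected scaRNA genes were lowest in library 3, with a median difference of 1.32. Of these 9, 7 were highest in library 1 and 7 followed the order of the snoRNAs. The 64 members, measured in the second quantification, had a median difference of 1.86 and 60 followed the order. The 164 snoRNA genes detected there alone had a median of 0.10, and 93 of them were higher in library 1 than in library 3. The order was followed by 46 of the 164 (28.0%), against 549 of the 9075 genes of any type detected in the second quantification alone (6.05%), whose median was -0.34. Among the 20 of the 164 with a mean of at least 100 estimated counts the median was 0.49, and 15 were higher in library 1 than in library 3. Snord21, with 834, 918 and 577 estimated counts, and Snora31 (130 nt, in Tpt1), with 243, 275 and 342, are 2 of these 20. These 164 genes were thus less uniform than the members and had a higher median than the 9075, a difference that was not tested.

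No member passed the test of spread between libraries across all genes. This test, an edgeR quasi-likelihood fit with an intercept alone, compared each gene's variation with that of genes of like abundance. After the filter on low counts, 13309 genes were tested and 0 were called at an adjusted p under 0.05 (0% of genes tested). Of the 47 members that passed the filter, 0 were called and 43 had an unadjusted p under 0.05, while over all genes 655 did. The lowest adjusted p among members was 0.159 by edgeR's quasi-likelihood test, in Rnu3a and the 215-nt Rnu3b entries. The median coefficient of biological variation was 0.408 in these members and 0.220 over all genes tested. Snord17 had an adjusted p of 0.468, Snora68 of 0.356 and Scarna10 of 0.992 in the same edgeR fit.

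The absence of calls depended on the setting. With no filter but a count above 0, edgeR called 40 of 64 members and 117 of 23976 genes. DESeq2 marked 30 of the 64 as outliers from its dispersion trend, against 0.4% of 23976 genes. With a minimum mean count of 10 edgeR called 1 of 64 members and 1 of 14396 genes. Without library 2, 29 of 48 members tested were called and 49 of 13621 genes. Without library 1, 7 of 47 members and 17 of 13616 genes were called. Without library 3, 0 of 62 members and 0 of 13484 genes were, while 30 members and 702 genes had an unadjusted p under 0.05 in that edgeR fit. The call was thus not stable across these settings, and the cause was not tested.

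The 2 quantifications gave different levels for many members. In a limma fit of the difference in log2(CPM + 0.5), second minus first, 46 of 64 members were called at an adjusted p under 0.05, where 67.9% of 14396 genes were. The second value was higher for 18 members (35.9% of all genes) and lower for 28 (32% of all genes). The share called among members was thus near that of all genes. These calls include 8 Rnu3b entries of identical copies, 4 called higher with the same value and 4 called lower with the same value. Without U3, 14 of 54 members were called higher and 24 lower. All 4 Snord genes were lower in the second quantification, by 0.21 to 0.54 in log2. Of the 17 Snora genes, 7 were called higher, 5 lower and 5 were not called. Members were chosen by their first count, and the part of this choice in the direction was not tested. Raw counts were higher in the second quantification for 60 of 64 members and its library totals were larger too.

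The direction followed abundance. Leaving out U3, 30 members averaged 100 or more expected counts, with a median difference of -0.38, and 24 averaged fewer, with a median of 0.45. Over all detected genes the same split gave -0.09 and 0.28. Gm22988 was among the most negative outside U3, at -0.64 ± 0.03 (SE), and Scarna10 was at -0.59 ± 0.02. The most positive was Gm24336 (146 nt, chr19:44113979-44114124, in an intron of Cwf19l1), with 35, 13 and 12 expected counts and 1421, 1014 and 497 estimated counts. Its difference was 4.40 ± 0.17 (SE) in log2, with a limma adjusted p of 9.2e-05. Snora7a, in an exon of an annotated transcript of Rpl32, had 65.7, 47.9 and 16.9 in the first and 330, 325 and 139 in the second. The U3 entries held the other extremes, at -2.84 for 215-nt and 3.78 for 216-nt Rnu3b.

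**Figure D4:**
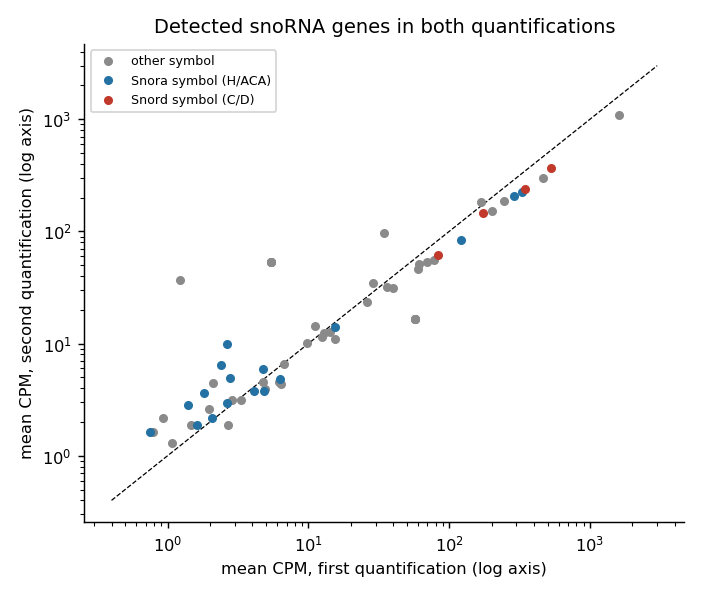
Mean CPM over 3 libraries in the second against the first quantification, both axes log, for the 64 detected snoRNA genes. Red is Snord, blue Snora and grey other symbols, and the dashed line marks equal values. The genes above 100 CPM lie mostly below the line, Gm24336 lies far above it at 1.22 CPM on the x axis, and the Rnu3b entries form overlaid points on both sides.

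Nearly all detected snoRNAs lay inside another gene. By GENCODE M21 coordinates 62 of the 64 lay on the same strand within a longer host gene, and the exceptions were the 2 Rnu3a entries. Host here means position alone. Whether a member is made from its host's transcript was not tested, and this includes the 8 Rnu3b entries within Tex14. The 62 had 45 hosts, of which 10 held more than 1 member and together held 27 members. A protein-coding host held 52 members, a noncoding host 10, and a ribosomal protein host 8. For 46 members no annotated exon of a host gene held the whole snoRNA, and partial overlap with an exon was not checked. The other 16 lay within an exon of at least 1 host transcript, most often a retained-intron transcript. Their reads could be assigned to the snoRNA or to that transcript. Among snoRNA genes with an effective length above 0 in all libraries, 49 of 169 with a detected host were detected (29.0%), 10 of 72 with a host that was not detected (13.9%) and 2 of 599 without a host (0.334%). Of the 10, 8 are the Rnu3b entries of identical sequence within Tex14, and without U3 the count was 2 of 64. In the second quantification the shares of the 3 groups were 55.0%, 15.3% and 6.34%. The 2 detected genes without a host are the Rnu3a entries.

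**Figure D5:**
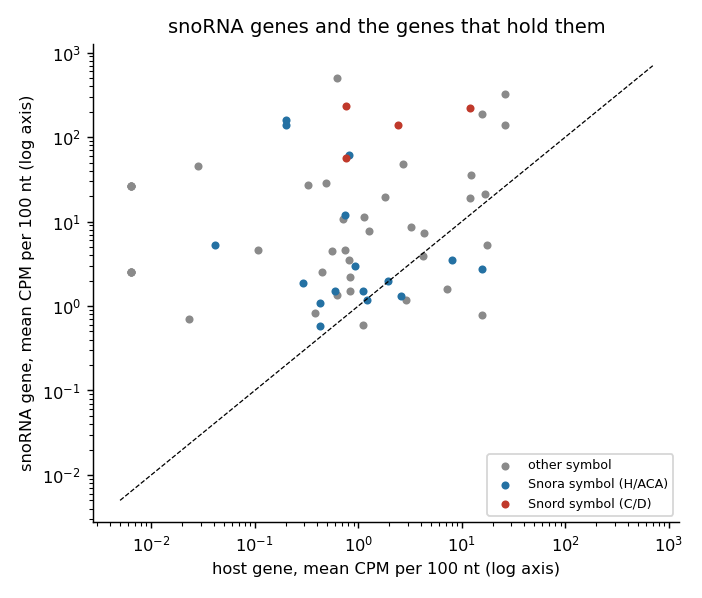
Mean CPM per 100 nt of each detected snoRNA gene against that of its host gene, both axes log, for hosts above 0. Colours are as for the other plots and the dashed line marks equal levels. Of 61 plotted genes 51 are above the line, which the choice of members by count fixes in part, and Scarna10 is the highest point.

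The level of a snoRNA was not that of its host. Per 100 nt, 52 of 62 hosted members were above their host. Part of this count was fixed by the choice of members. The lowest member had 0.577 CPM per 100 nt, so every member in a host below that level had to exceed it. The count also includes the 8 Rnu3b entries in Tex14. Wide contrasts were found with detected and with scarce hosts. Scarna10 had 497 CPM per 100 nt against 0.629 in Ncapd2, and Snora73b had 159 against 0.201 in Rcc1. Of the 3 hosts that were not detected, Epb41l4aos had 1, 2 and 2 expected counts. Its member Gm23639 had 0.704 CPM per 100 nt against 0.0234. The Rnu3b entries lay in Tex14, a gene of male germ cells with 6, 5 and 4 expected counts. Snora78 was listed within Snhg9, which had 0 in all libraries. Snora78 also overlaps Rps2 on the opposite strand. Members below their host included Gm24616 and Snora81 in Eif4a2. The hosts did not share the order of the libraries: of 42 detected host genes 4 followed it, near the 8.63% of all detected genes. The median difference between libraries 1 and 3 was -0.08 in log2(CPM + 0.5) in these hosts and -0.20 in all detected genes. Ncapd2, the host of Scarna10, had 196, 375 and 202 expected counts, Snx5, the host of Snord17, had 1830, 3498 and 2599, and Rps3 had 352, 373 and 246.

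The snoRNAs of the same host differed widely. In Eif4a2, Gm26447 had 189 ± 119 CPM per 100 nt (SD, n = 3), Snora81 had 2.72 ± 0.98 and Gm24616 had 0.77 ± 0.75. In Snx5, Snord17 had 407, 185 and 78.1 in the 3 libraries and Gm26165 had 34.0, 16.9 and 6.22. In Eif4a1, Gm22988 had 323 ± 163 and Gm25835 had 140 ± 75.3, and in each library Gm22988 was the higher. In Rps3, Snord15b had 237 ± 157 and Snord15a had 56.3 ± 35.2. In Pabpc4, Gm22154 and Gm25788 had 2.20 ± 2.11 and 1.51 ± 1.33 and were not separated by their spread, since Gm25788 was the higher in library 3.

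Genes for the proteins of snoRNA complexes were mostly detected. All 4 C/D core genes examined were, among them Fbl, the methylase fibrillarin, at 6.39 ± 2.16 TPM and Nop56, a scaffold of the complex, at 17.04 ± 7.64 TPM (SD, n = 3). Of the 4 H/ACA core genes, Dkc1, which encodes dyskerin, had 5.47 ± 4.06 TPM and Nhp2 had 8.62, 5.38 and 10.01 TPM (183, 96 and 117 expected counts) in the 3 libraries. Gar1 and Nop10 stayed below a mean expected count of 10, with 8.33 and 6.00. Of 12 assembly factors 11 were detected, Znhit3 being the exception, and all 4 partners of U3 and of ribosomal RNA modification were. Ncl, which encodes nucleolin, led the partners at 24.5 ± 9.88 TPM. TPM is rescaled within a library, and the snoRNA members held 57.8%, 50.5% and 35.4% of it in libraries 1, 2 and 3. The TPM of these protein genes and its SD therefore depend on that share. Fbl had 3.99, 7.03 and 8.16 TPM in the 3 libraries. Fbl had 105, 136 and 102 expected counts in libraries 1, 2 and 3, and Nop56 had 368, 504 and 469. Library 1 was thus the highest in expected counts for Nhp2 and not for Fbl, Nop56 or Dkc1, which had 105, 104 and 213.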

How the data were processed

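Chromatin-fraction RNA of 3 libraries was analysed, with build mm10 and annotation M21 (GENCODE) per the deposited file notes. The authors deposited expected counts and TPM per gene, and estimated counts and TPM per transcript from a second quantification, per the file headers. The tools used and whether counting was stranded are not stated in these sources, so antisense overlaps are uncertain. Library totals were 16301150, 17033725 and 16205704 expected and 24724674, 28795435 and 27034109 estimated counts, so that 3 counts equal 0.184, 0.176 and 0.185 CPM. These limits cover counting error only.

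The members, gene lists and tests were chosen with earlier results of these data known. Estimated counts were summed per gene. Entries that name no mouse gene were left out and held 1.03%, 0.245% and 0.218% of counts in the first quantification. Named genes were the 6 Snord, 6 Snora and 6 other genes with the highest mean count, the 3 members and 3 non-members nearest to the minimum, the 3 most positive and negative differences between quantifications, the 3 widest ranges between libraries, and U3, U8, U13, U14, U17 and U22. Other names were chosen after their values were seen. Snord8, among the 6 Snord genes by this rule, was below the minimum. Where several host genes matched, the one with the highest mean count was used.

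For spread between libraries, edgeR 4.0.16 (R 4.3.3) was fitted to rounded expected counts with TMM and filterByExpr, and the quantifications were compared with limma 3.58.1 (trend), both with Benjamini-Hochberg adjustment over all genes tested. The fits were tested on simulated data. DESeq2 1.42.0 gave alternative size factors and dispersion outliers. Python 3.11.15, numpy 2.4.6, pandas 2.3.3 and matplotlib 3.10.9 were used for other steps. Alternatives were other count minimums, the second quantification, TPM, pseudocounts, length correction and leaving out each library.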

Additional observations from a re-analysis of the deposited data

How the results depend on the processing

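The number of detected snoRNA genes was 64, ranged from 61 to 70 when each library was left out, and was 228 in the second quantification. The detected share of Snord genes (4.08%) was 42.9% in the second quantification, 2.02% with the class taken from boxes and 80% among genes with an effective length above 0 in all libraries. The share of Snora genes (40.5%) was 54.8% at a minimum of 5, 69.0% in the second quantification and 5.90% by boxes. The C/D minus H/ACA level (6.05) was 5.42 in TPM, 5.13 in the second quantification, 6.29 and 5.44 with pseudocounts of 0.1 and 2, 4.97 as a difference of means and 5.61 by boxes. It reversed to -0.89 over all annotated genes, where the Snord median is only the added 0.5. It also reversed to -1.27 over all annotated genes in the second quantification and to -0.53 over genes detected there. Leaving out each library gave 6.02 to 6.10. The spread test called 40 members without a filter, 1 at a mean count of at least 10 and 30 by DESeq2 dispersion outliers, against 0 in edgeR as described, 0 with DESeq2 size factors, and 0 to 29 when each library was left out. The members' share of counts (0.542%) was 47.9% of TPM and 8.28% of TPM in the second quantification, and 0.394% to 0.686% when each library was left out. The median difference between libraries 1 and 3 (2.10) was 1.18 in TPM, where all detected genes had -0.89, and 35 members in place of 58 followed the order of libraries there, against 1.15% of all detected genes. Under TMM scaling the members' median was 2.28 and that of all detected genes -0.03. The cause of these shifts was not tested. Calls between the quantifications ranged from 39 to 48 members when each library was left out. Of the 29 named members, 9 had a mean count in the second quantification that differed by more than 1 SD from the first. Some of the 29 were named for their difference between the quantifications, so this count is partly fixed by the naming. The 9 include the 216-nt Rnu3b entries, which share a single value. Class from boxes, the restriction by effective length, the second quantification's own members and the scalings of the library order were chosen after seeing the data. No paired comparison of groups was possible because the libraries form a single group, while the 2 quantifications were compared within each library. Counting depth limits the 7 members with at most 3 expected counts in library 3, whose differences between libraries depend on the added 0.5 CPM.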
